A study of Mus musculus with 12 samples.

Results

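Long intergenic noncoding RNAs (lincRNAs) were examined in NIH3T3 cells, a mouse embryonic fibroblast line, kept in normoxia or hypoxia with and without N-VEGF. The genes were chosen on measured values: rows of the raw counts table with the biotype lincRNA and at least 1 CPM (the count scaled to the total of its sample) in 3 or more of the 12 samples, leaving out genes on the X and Y chromosomes and the imprinted H19, Meg3, Rian and Mirg. Of 54446 rows, 5559 carried the biotype, 217 of these passed the limit, and 215 remained once 2 genes on the X chromosome were left out. WT cells were the parental line and ΔN-VEGF cells carried a CRISPR deletion of the N-VEGF coding part of the Vegfa gene, made with a pair of guide RNAs and 2 donor cassettes, isolated as single clones and treated with a recombinase to remove the cassettes. Normoxic cultures grew in air with CO2 and hypoxic cultures were held for 16 h below 0.2% oxygen. The 4 groups (WT normoxia, WT hypoxia, ΔN-VEGF normoxia, ΔN-VEGF hypoxia) held 3 samples each, and which clone the ΔN-VEGF samples came from is not in the labels. The ΔN-VEGF cells thus descend from single cells, and clone and deletion cannot be told apart.

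A lincRNA is a transcript longer than the small RNAs, usually capped, spliced and polyadenylated, that encodes no known long protein and lies between protein-coding genes. Some stay at the site where they are made and act on neighbouring genes, some build nuclear bodies, and others serve mainly as hosts from which small nucleolar RNAs or microRNAs are cut. In cells short of oxygen, the hypoxia-inducible transcription factors bind the hypoxia response element, and several noncoding RNAs are known targets besides the glycolysis and angiogenesis genes.

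Library depth ran from 30519052 to 43056690 counts on genes. All 12 protein-coding hypoxia reference genes listed for the check, among them Vegfa, Car9 and Slc2a1, rose in both lines, by 1.85 to 5.42 on the log2 scale in WT cells and by 2.2 to 5.84 in ΔN-VEGF cells. Vegfa itself, counted over the whole gene and so not a check of the deletion, stood at 39.4 to 86.2 CPM after TMM scaling in WT normoxia, 272 to 291 in WT hypoxia, 34.2 to 37.3 in ΔN-VEGF normoxia and 419 to 437 in ΔN-VEGF hypoxia. The 7 fibroblast markers were found in every sample, with a summed level of 11533 to 23196 CPM (by total counts, as for all marker sums). The 4 epithelial markers summed to at most 2.86 CPM, the 3 leukocyte markers to 6.51 and the 3 muscle markers to 6.99. The 3 endothelial markers summed to 2.16 to 4.18 CPM in WT normoxia, 5.69 to 7.44 in WT hypoxia, 1.97 to 4.24 in ΔN-VEGF normoxia and 16.5 to 20.9 in ΔN-VEGF hypoxia, nearly all of it Cdh5, while Kdr stood at or near 0. Replicate 2 of WT normoxia stood apart from its partners: correlation of log2 CPM with them was 0.956 and 0.957, against 0.996 between the other two.

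The lincRNAs were a small share of each transcriptome. They took 0.329%, 0.174% and 0.339% of the counts in WT normoxia, 0.284%, 0.262% and 0.293% in WT hypoxia, 0.295%, 0.218% and 0.294% in ΔN-VEGF normoxia and 0.269%, 0.257% and 0.276% in ΔN-VEGF hypoxia. Replicate 2 was the lowest of its group in all 4, and by most in WT normoxia, while the ranges of the hypoxic groups lay inside those of the normoxic groups of the same line. The median lincRNA had a mean of 1.99 TMM-scaled CPM, against 16.2 over all 14724 genes tested, 109 lincRNAs had a mean under 2 and 32 a mean of at least 10. The 10 most abundant took 60.7% to 74.4% of the lincRNA counts of a sample.

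**Figure D1:**
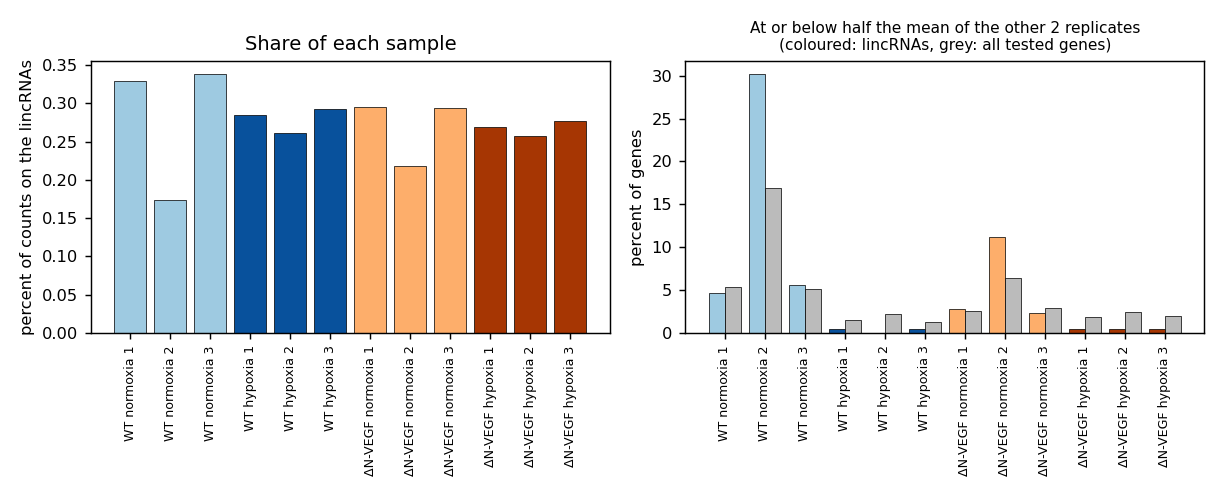
Left, percent of each sample's counts on the 215 lincRNAs, 12 samples coloured by group; right, percent of lincRNAs (coloured) and of all tested genes (grey) at or below 0.5 of the mean of the other 2 replicates of their group. Replicate 2 of WT normoxia had the lowest share, 0.174%, and 30.2% of the lincRNAs at or below 0.5 of its partners, against 16.9% of all genes.

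In replicate 2 of WT normoxia, 65 of the 215 lincRNAs stood at or below 0.5 of the mean of replicates 1 and 3 (30.2%, against 16.9% of all tested genes), and in replicate 2 of ΔN-VEGF normoxia 24 did (11.2%, against 6.36%). In the other 10 samples the number was at most 12. The counts of calls and the genes most affected are therefore given below also without that WT sample. Whether RNA quality, culture or another cause set it apart was not tested.

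The rule used levels, so how many samples reached the limit is a description. Of the 215, 98 reached 1 CPM in all 12 samples and 117 in 3 to 11. In all, 9 reached it in the samples of 1 group alone, that is 7 in WT hypoxia, 1 in WT normoxia, 1 in ΔN-VEGF normoxia and 0 in ΔN-VEGF hypoxia. A further 18 reached it in both normoxic groups and no other, 5 in both hypoxic groups, 10 in both WT groups and 1 in both ΔN-VEGF groups. A gene let in through 1 side of a comparison alone had to differ there, so its values are given as a description, and 8 of the 9 let in through 1 group were called in some comparison. At the limit itself, the third highest CPM was 1.02 for A330035P11Rik, AL805899.2 and Gm9866, just inside, and 0.999, 0.993 and 0.985 for 1810044D09Rik, 6030443J06Rik and A230028O05Rik, just outside. All 215 passed the filter on low counts and were tested.

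By position, the name intergenic holds only in part. By the coordinates of the counts table, 44 of the 215 overlapped a protein-coding gene and a further 72 lay within 5000 bases of one. By the strand in the GENCODE M21 annotation of the same build (GRCm38), 80 of these 116 were opposite to it. The median distance to the nearest coding gene was 3479 bases, the median exonic length 2327 bases (range 168 to 93147), and 34 had a single exon. RefSeq classed 123 as lncRNA, 11 as protein-coding and 5 as a pseudogene or transcribed pseudogene, and 76 had no single entry. Zfp469, the symbol of a zinc finger protein, and 1810058I24Rik, which RefSeq lists with the synonym Stmp1, are among the 11. The library kit did not mark strand, so reads of a lincRNA and of a coding gene across it cannot be told apart.

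Hypoxia changed 45 of the 215 lincRNAs in WT cells and 66 in ΔN-VEGF cells at an adjusted p below 0.05 and at least 2-fold (edgeR quasi-likelihood test, Benjamini-Hochberg adjustment over all 14724 genes). In WT cells 32 rose and 13 fell, 20.9% in all, where 15.7% of all tested genes passed, 9.17% upward and 6.53% downward. All 7 lincRNAs let in through WT hypoxia alone are among the 32. Without the 32 lincRNAs that reached 1 CPM in normoxic or in hypoxic samples alone, 21 rose and 7 fell in WT cells, or 15.3% of 183. The 15.7% of all genes was not cut in this way, so the shares are not like for like. In ΔN-VEGF cells 40 rose and 26 fell, 30.7% in all, where 27.2% of all genes passed, 14.6% upward and 12.7% downward. Without the same 32, 31 rose and 17 fell, or 26.2%, and the 27.2% of all genes was again not cut. The median log2 fold change of the lincRNAs was 0.10 in WT and 0.25 in ΔN-VEGF cells, against -0.07 and -0.01 over all genes. In these bulk samples, more cells expressing a gene and more RNA per cell cannot be told apart. The split between directions rests on the scaling: with total counts in place of TMM, which moves the median of all genes to -0.30 and -0.41, 28 rose and 26 fell in WT cells and 26 rose and 42 fell in ΔN-VEGF cells.

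**Figure D2:**
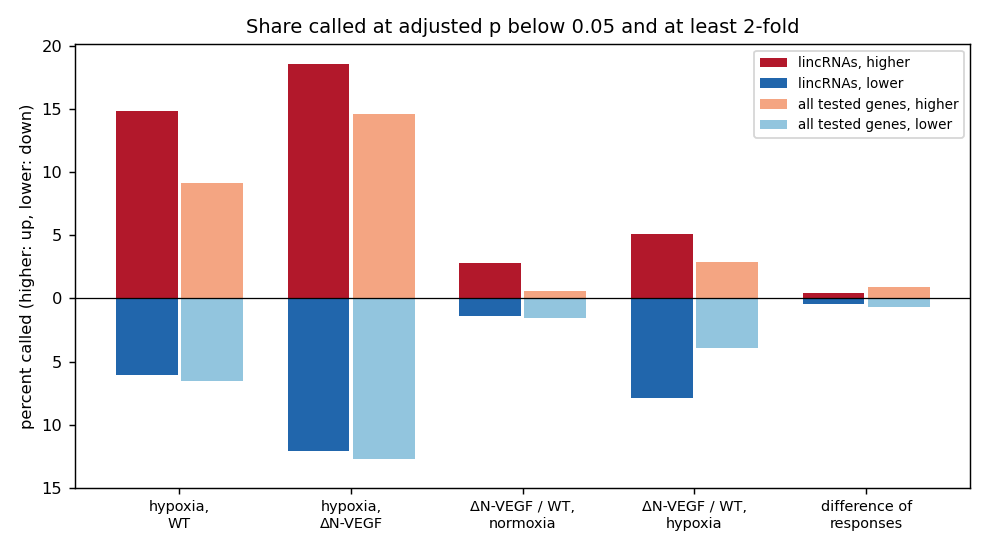
Percent of the 215 lincRNAs (dark) and of all 14724 tested genes (light) called at an adjusted p below 0.05 and at least 2-fold, higher (upward bars) or lower (downward bars), in each of 5 comparisons. In hypoxia 14.9% of the lincRNAs rose in WT and 18.6% in ΔN-VEGF cells, against 9.17% and 14.6% of all genes. The rises in WT hold all 7 lincRNAs let in through WT hypoxia alone, and the split between directions rests on the scaling.

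The comparisons of the lines under hypoxia share no sample, and 33 lincRNAs were called in both, 73.3% of the WT calls and 50% of the ΔN-VEGF calls. All 33 moved the same way, 23 upward and 10 downward, with those let in through 1 oxygen level included. Over all tested genes 1809 were called in both lines, 78.2% of the WT calls and 45.1% of the ΔN-VEGF calls, and 1802 of these moved the same way, so the lincRNAs were near the general share. Across the 215, the log2 fold changes of the lines correlated with a Pearson r of 0.79 and a Spearman rho of 0.75, against 0.79 and 0.76 over all 14724 genes. These are correlations across genes measured in the same libraries, and genes are not independent replicates.

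**Figure D3:**
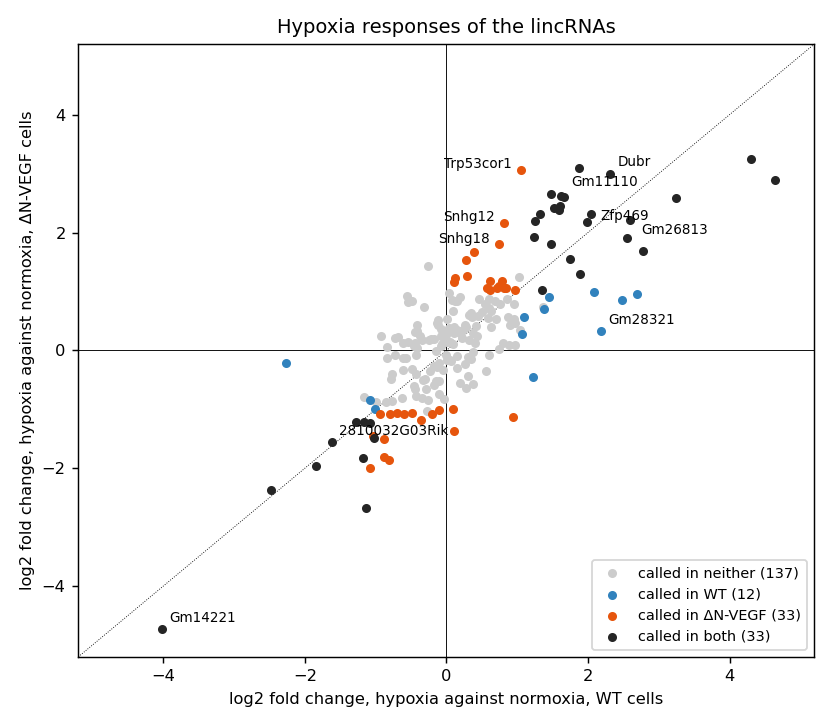
Log2 fold change of each of the 215 lincRNAs in hypoxia against normoxia, in WT cells (x axis) and ΔN-VEGF cells (y axis), coloured by where it was called; the dotted line marks equal responses. The 33 called in both lines lie at the lower left or upper right, among them Gm14221 at -4.01 and -4.73 and Dubr at 2.32 and 3.00.

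Of the called lincRNAs, 7 of 45 in WT cells and 8 of 66 in ΔN-VEGF cells had a mean of at least 10 TMM-scaled CPM, as did 32 of all 215. Dubr, a lincRNA described in muscle cell differentiation, had the highest log2 fold change among these in both lines with all samples. It stood at 3.65, 2.67 and 4.89 TMM-scaled CPM in the WT normoxia samples and at 18.9, 18.3 and 18.9 in WT hypoxia. In ΔN-VEGF cells it stood at 5.43, 4.55 and 5.24 in normoxia and at 41.4, 38.9 and 41.5 in hypoxia. No hypoxic sample came near a normoxic one, and the hypoxic samples of the lines did not overlap. Dubr rose by 2.32 ± 0.18 on the log2 scale in WT cells (SE of the fit over all 12 samples, n = 3 and 3). Its adjusted p was 3.5e-06 (edgeR quasi-likelihood test). The rise was 3.00 ± 0.18 in ΔN-VEGF cells, at an adjusted p of 3.1e-07 (edgeR quasi-likelihood test, Benjamini-Hochberg). Dubr lies at chr16:50719294-50732773 on the minus strand, 128140 bases from the nearest coding gene, Ccdc54.

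The promoter window of Dubr is shown with those of Snhg12, which responded differently in the lines, and of 2810032G03Rik, a fall of equal size in both (RefSeq, build GRCm38.p6, 250 bases before to 50 after the start of the transcript). Capitals mark the core letters of the hypoxia response element, searched as ACGTG and GCGTG on both strands. ACGTG also lies within the E-box CACGTG.
Dubr, chr16:50732724-50733023, minus strand: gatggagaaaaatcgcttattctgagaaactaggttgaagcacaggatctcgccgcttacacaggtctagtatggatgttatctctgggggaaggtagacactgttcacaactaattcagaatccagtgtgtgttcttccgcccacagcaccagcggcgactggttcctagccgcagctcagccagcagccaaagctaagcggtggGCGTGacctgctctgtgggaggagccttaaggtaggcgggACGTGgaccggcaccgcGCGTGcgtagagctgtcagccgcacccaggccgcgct
Snhg12, chr4:132308428-132308727, plus strand: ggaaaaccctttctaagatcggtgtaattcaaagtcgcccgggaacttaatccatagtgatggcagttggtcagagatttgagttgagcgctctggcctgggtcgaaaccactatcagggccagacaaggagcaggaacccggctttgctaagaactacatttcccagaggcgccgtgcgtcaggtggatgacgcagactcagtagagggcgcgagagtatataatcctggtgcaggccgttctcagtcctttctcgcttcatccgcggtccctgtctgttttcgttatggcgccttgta
2810032G03Rik, chr12:5375470-5375769, plus strand: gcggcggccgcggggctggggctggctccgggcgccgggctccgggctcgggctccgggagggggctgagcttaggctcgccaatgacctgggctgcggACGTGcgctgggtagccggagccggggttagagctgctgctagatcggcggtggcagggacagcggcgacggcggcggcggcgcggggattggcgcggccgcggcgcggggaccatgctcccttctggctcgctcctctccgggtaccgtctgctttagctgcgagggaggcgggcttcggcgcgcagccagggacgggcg
The Dubr window held GCGTG at position -44, ACGTG at -4 and GCGTG at 14, counted from the start of the transcript. The window of 2810032G03Rik held ACGTG at -151 and that of Snhg12 held neither.

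Windows were found for 104 of the 215 lincRNAs, 117 in all since a gene can have several starts. ACGTG or GCGTG stood in 53.8% of these 117, in 7 of the 13 windows of lincRNAs that rose in both lines and in 2 of the 4 windows of those that fell in both. Over all 32851 windows of the table the share was 43.8%. A match of letters is a description of the window and not a bound site.

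Zfp469, Gm11110, Gm17501, C030037D09Rik, Bc1 and Wincr1 were singled out after their values were seen. Zfp469, a row of 3082 bases in 1 exon at chr8:122269569-122272650 that overlaps Gm20388 on the same strand, was even in its response. It stood at 7.44, 10.6 and 7.42 TMM-scaled CPM in WT normoxia and 35.2, 35.6 and 34.2 in WT hypoxia, and at 6.42, 7.39 and 7.87 and then 36.2, 35.9 and 35.3 in ΔN-VEGF cells. The hypoxic samples of both lines fell within 34.2 to 36.2. The rise was 2.04 ± 0.14 (log2, SE) in WT and 2.31 ± 0.15 in ΔN-VEGF cells, with adjusted p of 1.6e-06 and 3.6e-07 (edgeR quasi-likelihood test).

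Gm11110, which overlaps the coding gene Tnfsf9 on the opposite strand, stood at 7.76, 3.69 and 7.73 TMM-scaled CPM in WT normoxia and at 20.5, 20.5 and 20.003 in WT hypoxia. In ΔN-VEGF cells it went from 5.6, 4.88 and 5.39 to 31.7, 32.5 and 32.7. The groups did not overlap in either line, and the log2 rises were 1.67 ± 0.22 and 2.61 ± 0.23 (SE). Tnfsf9, a ligand of the tumour necrosis factor family, rose by 2.08 and 2.16, and without strand the reads of this pair cannot be separated.

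**Figure D4:**
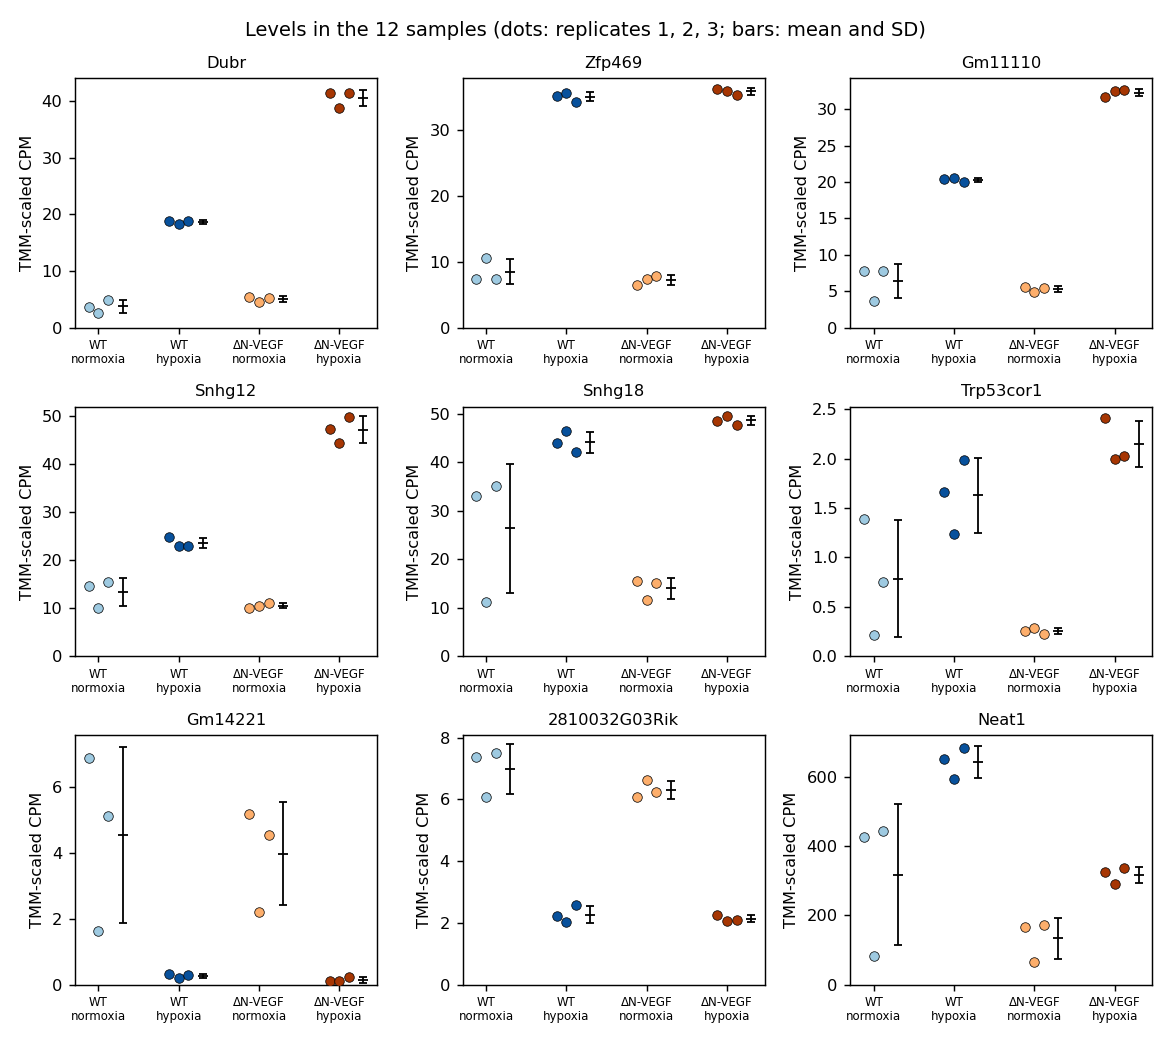
TMM-scaled CPM of 9 lincRNAs in the 12 samples (dots, replicates 1 to 3 from left to right; bar, mean and SD of 3 samples) in the 4 groups; each y axis starts at 0. Dubr reached 18.3 to 18.9 in WT hypoxia and 38.9 to 41.5 in ΔN-VEGF hypoxia, and Neat1 in WT normoxia spread from 82.0 to 442.

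By size of fold change the leading rises were rare transcripts. In WT cells the 6 largest without overlap between groups were Gm17746, Gm12295, B230344G16Rik, Gm17315, Gm29630 and Gm26813. Gm17746, at chr12:25129174-25134931 and 32034 bases from Id2, had at most 3 counts in any WT normoxia sample. It had 8 counts in those 3 samples together and 160 in WT hypoxia, a ratio of 22.2 relative to total counts, with an exact 95% interval of 11.01 to 52.3 that covers counting error only. Gm12295, 7665 bases from the myocardin gene Myocd, had 7 counts over ΔN-VEGF normoxia and 52 over ΔN-VEGF hypoxia, a ratio of 7.61 (3.44 to 19.9). Both reached 1 CPM in WT hypoxia alone, so that their difference was built into the choice. The same holds for Gm17315 and Gm37565, and for Gm16046, Gm32369 and Gm12415, whose log2 differences in WT hypoxia were 1.22, 2.09 and 2.48. Without replicate 2 of WT normoxia they were 0.99, under 2-fold, 2.18 and 3.74.

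Gm26813, 1525 bases from Fzd7 on the opposite strand, and B230344G16Rik reached 1 CPM in hypoxic samples alone, so that their rise too was built into the choice. Gm26813 stood at 0.776, 0.766 and 0.443 TMM-scaled CPM in WT normoxia and at 4.0, 3.49 and 4.46 in WT hypoxia, and went from 0.883, 0.616 and 0.858 to 3.7, 3.47 and 3.83 in ΔN-VEGF cells. The log2 differences were 2.59 and 2.22. Fzd7, a Wnt receptor, rose by 3.00 and 3.26 in the same samples, with adjusted p of 6.7e-09 and 2.4e-09 (edgeR quasi-likelihood test). B230344G16Rik (3.25 in WT and 2.58 in ΔN-VEGF cells) overlaps the integrin gene Itgb4, and Gm17315 (2.78 and 1.69) overlaps the Cdc42 effector Cdc42ep3, which itself rose by 2.46 and 2.05.

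In ΔN-VEGF cells the largest rises without overlap were Gm12295, Gm49539, Trp53cor1, Dubr, Gm17746 and Gdap10. Gdap10 lies within Nampt, the gene of an NAD-producing enzyme, on the same strand. It went from 1.14, 0.947 and 1.03 to 6.30, 5.89 and 7.6 TMM-scaled CPM in ΔN-VEGF cells and from 2.21, 0.720 and 1.95 to 4.31, 4.28 and 5.10 in WT cells. The groups did not overlap, with log2 rises of 2.66 and 1.48, and Nampt rose by 1.31 and 1.64. Reads of the host gene's transcript could be counted in either. Gm49539, also at 1 CPM in hypoxic samples alone, differed by 3.10 in ΔN-VEGF and 1.87 in WT cells, from at most 0.405 to between 1.06 and 1.87 CPM.

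The most negative fold changes in both lines were those of Gm14221, 25917 bases from the topoisomerase gene Top1. It reached 1 CPM in normoxic samples alone, so that a difference was built into the choice and its values are a description. It stood at 6.87, 1.63 and 5.11 TMM-scaled CPM in WT normoxia and at 0.311, 0.205 and 0.306 in WT hypoxia, and at 5.17, 2.2 and 4.53 and then 0.094, 0.0965 and 0.245 in ΔN-VEGF cells. Replicate 2 was the lowest normoxic sample in both lines, but every normoxic sample was above every hypoxic one. The log2 difference of Gm14221 was -4.01 in WT and -4.73 in ΔN-VEGF cells. Top1 fell by 1.39 and by 1.84.

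2810032G03Rik, 188 bases from Klhl29 on the opposite strand, fell by a like amount in both lines. It stood at 7.37, 6.06 and 7.51 TMM-scaled CPM in WT normoxia, 2.21, 2.02 and 2.57 in WT hypoxia, 6.07, 6.63 and 6.22 in ΔN-VEGF normoxia and 2.26, 2.06 and 2.09 in ΔN-VEGF hypoxia. The log2 change was -1.62 ± 0.14 in WT and -1.56 ± 0.14 in ΔN-VEGF cells, with adjusted p of 8.9e-06 and 6.7e-06 (edgeR quasi-likelihood test). Klhl29 differed by -0.93 and -1.20. Gm47034 also fell in both lines. Gm35019, Gm26694 and Gm47509 were lower in hypoxia in both lines, but reached 1 CPM in normoxic samples alone, which built this into the choice. In WT cells Gm26694 differed by -1.17, or by -0.79 and under 2-fold without replicate 2 of WT normoxia. Gm47034 did not pass in WT cells in 2 of 12 fits with 1 sample left out. Gm38399, which overlaps Nav1 on the same strand, changed by -1.16 and -1.21, where Nav1 itself changed by -1.04 and -1.09. Gm47509 changed by -2.68 in ΔN-VEGF cells, or by -1.96 without replicate 2 of ΔN-VEGF normoxia. Its change of -1.14 in WT cells did not pass in 6 of 12 fits with 1 sample left out. Gm11261 fell by 2.0 in ΔN-VEGF cells, and its difference of -1.08 in WT cells did not pass (adjusted p 0.051, edgeR quasi-likelihood test).

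The responses of the lincRNAs were set beside those of their coding neighbours. The Spearman correlation of the log2 fold change of a lincRNA with that of its nearest coding gene, where that gene was tested, was 0.64 in WT and 0.64 in ΔN-VEGF hypoxia over 30 overlapping pairs. It was 0.47 and 0.51 over 68 pairs 1 to 5000 bases apart, and 0.32 and 0.23 over 63 pairs farther apart. Pairs share libraries, some genes are neighbour to more than 1 lincRNA, and without strand reads of overlapping pairs may be counted in either gene. These are therefore descriptions. Where a called lincRNA had a tested neighbour, the neighbour was called too in 5 of 8 (WT) and 5 of 9 (ΔN-VEGF) overlapping pairs, in 4 of 8 and 10 of 24 pairs 1 to 5000 bases apart, and in 6 of 20 and 5 of 15 pairs farther apart. Over all genes 15.7% were called in WT and 27.2% in ΔN-VEGF cells.

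**Figure D5:**
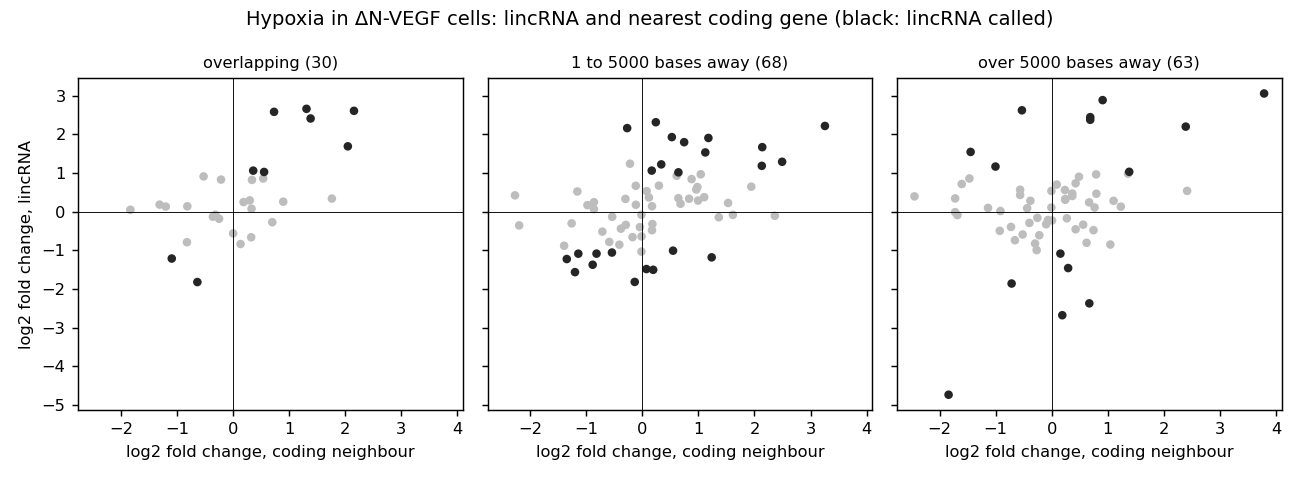
Log2 fold change in hypoxia against normoxia in ΔN-VEGF cells of each lincRNA (y axis) and of its nearest protein-coding gene (x axis), for 30 overlapping pairs, 68 pairs 1 to 5000 bases apart and 63 pairs farther apart; black dots are called lincRNAs. The Spearman correlation was 0.64, 0.51 and 0.23.

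Gm17501, 331 bases from the matricellular gene Cyr61 on the opposite strand, shows how replicate 2 of WT normoxia bears on single genes. Gm17501 stood at 3.01, 14 and 2.64 TMM-scaled CPM in WT normoxia and 25.1, 23.4 and 24.4 in WT hypoxia, and went from 7.77, 9.59 and 7.30 to 18.7, 21.7 and 19.96 in ΔN-VEGF cells. The rise in WT cells was 1.89 ± 0.50 (log2, SE) with all samples and 3.11 without that replicate, against 1.29 in ΔN-VEGF cells, which did not pass in 9 of 12 fits with 1 sample left out. C030037D09Rik, 132 bases from the RNA-binding protein gene Msi2, moved the other way in that sample, at 5.02, 1.63 and 4.91 in WT normoxia and 9.38 to 10.05 in WT hypoxia. Its rise of 1.32 in WT cells was 0.97, under 2-fold, without that replicate, and 2.31 in ΔN-VEGF cells with all samples.

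Of lists of lincRNAs drawn up by function, 17 genes were members and are described here. Hypoxia changed 1 of the 17 in WT and 4 in ΔN-VEGF cells, where 15.7% and 27.2% of all genes passed. Listed genes of another biotype, such as Gas5, Snhg1, Zfas1 and Tug1, are not members. Neat1, the scaffold of paraspeckles, stood at 427, 82.0 and 442 TMM-scaled CPM in WT normoxia, 653, 593 and 683 in WT hypoxia, 165, 65.7 and 172 in ΔN-VEGF normoxia and 326, 290 and 335 in ΔN-VEGF hypoxia. Every hypoxic sample was above the normoxic samples of its line. The log2 difference was 1.02 ± 0.51 in WT cells (adjusted p 0.14) and 1.24 ± 0.51 in ΔN-VEGF cells (adjusted p 0.061, edgeR quasi-likelihood test), so neither passed. Without replicate 2 of WT normoxia the values were 0.57 (adjusted p 0.10) and 1.23 (adjusted p 0.00075, same test), and the second then passed.

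Malat1, an abundant RNA of nuclear speckles, stood at 444, 122 and 374 TMM-scaled CPM in WT normoxia and 377, 332 and 364 in WT hypoxia, and at 221, 170 and 180 and then 368, 325 and 374 in ΔN-VEGF cells. The WT groups overlapped and the ΔN-VEGF groups did not, but the ΔN-VEGF difference of 0.90 ± 0.34 was under 2-fold (adjusted p 0.045, edgeR quasi-likelihood test). 2900097C17Rik (Norad), which binds Pumilio proteins, ranged over the 12 samples from 111 to 162, and 1700020I14Rik (Cyrano, RefSeq Oip5os1), known for the destruction of a microRNA, from 28.2 to 49.3. Neither was called in any of the 5 comparisons. Over the lists as a whole, whatever the biotype, 0 of 3 tested nuclear body genes, 0 of 3 microRNA-binding and RNA-stability genes and 0 of 6 chromatin and developmental genes were called in hypoxia in either line. Of 3 tested hypoxia-linked lincRNAs 0 rose in WT and 1 in ΔN-VEGF cells, of 5 p53-linked and MYC-linked genes 0 and 2, and of 8 microRNA hosts 1 and 2. Over all genes 9.17% rose in WT and 14.6% in ΔN-VEGF cells.

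Of the hosts of small nucleolar RNAs, 6 were members (Snhg6, Snhg10, Snhg12, Snhg18, Snhg20 and Epb41l4aos). Hypoxia raised 2 of the 6 in ΔN-VEGF and 0 of the 6 in WT cells at the thresholds. Over the 17 tested hosts of the list, whatever their biotype, 6 rose and 1 fell in ΔN-VEGF hypoxia and 0 passed in WT hypoxia. At the same thresholds 14.6% of all genes rose in ΔN-VEGF cells.

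Snhg12 stood at 14.6, 9.98 and 15.4 TMM-scaled CPM in WT normoxia and at 24.7, 22.9 and 22.9 in WT hypoxia. In ΔN-VEGF cells it stood at 10.1, 10.4 and 11.1 in normoxia and at 47.2, 44.2 and 49.8 in hypoxia. All hypoxic samples were above all normoxic samples, and the ΔN-VEGF hypoxia samples were above every other. The log2 difference was 0.82 ± 0.14 in WT cells, under 2-fold (adjusted p 0.0012). In ΔN-VEGF cells it was 2.16 ± 0.15 (adjusted p 7.2e-07). The responses differed by 1.34 ± 0.20 (adjusted p 0.0089, edgeR quasi-likelihood test of the interaction). Its gene lies at chr4:132308623-132311024, 739 bases from Trnau1ap, a factor of selenoprotein synthesis on the opposite strand that differed by 0.00 in WT and -0.27 in ΔN-VEGF cells.

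Snhg18 stood at 33.0, 11.1 and 35.0 TMM-scaled CPM in WT normoxia, 43.9, 46.4 and 42.0 in WT hypoxia, 15.5, 11.5 and 14.97 in ΔN-VEGF normoxia and 48.6, 49.4 and 47.7 in ΔN-VEGF hypoxia. It rose by 1.80 ± 0.33 (log2, SE) in ΔN-VEGF cells (adjusted p 0.00087) and differed by 0.74 ± 0.32 in WT cells (adjusted p 0.093). The difference of the responses, 1.06 ± 0.45, did not pass (adjusted p 0.21, edgeR quasi-likelihood test), and was 1.41 without replicate 2 of WT normoxia (adjusted p 9.8e-06, same test). Snhg6 and Epb41l4aos differed by 0.60 and 0.84 in ΔN-VEGF hypoxia, under 2-fold, and Snhg10 by -0.88. Snhg20 was lower in ΔN-VEGF than in WT cells, at 3.85, 3.34 and 3.09 against 7.05, 6.71 and 6.84 in normoxia, with no overlap. That log2 difference of -1.0 sat at the 2-fold limit and did not pass in 13 of 21 alternative fits.

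Among the lincRNAs tied to p53 and MYC, Trp53cor1, a p53 target also called lincRNA-p21, stood at 0.258, 0.284 and 0.221 TMM-scaled CPM in ΔN-VEGF normoxia and at 2.41, 1.99 and 2.02 in ΔN-VEGF hypoxia. In WT cells it stood at 1.39, 0.209 and 0.751 in normoxia and at 1.66, 1.23 and 1.99 in hypoxia, where the groups overlapped. It rose by 3.06 ± 0.52 (log2, SE) in ΔN-VEGF cells (adjusted p 0.00052) and differed by 1.06 ± 0.46 in WT cells (adjusted p 0.096, edgeR quasi-likelihood test). Its neighbour Cdkn1a, a cell-cycle inhibitor 11797 bases away, rose by 3.54 in WT and 3.79 in ΔN-VEGF cells. Pvt1, the neighbour of Myc, ranged from 9.66 to 14.4 and was not called, and Lockd, downstream of Cdkn1b, and Lncpint were not called in any comparison with all samples. Without replicate 2 of WT normoxia they passed in WT hypoxia, at 1.36 and 1.04.

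Of the microRNA hosts, Carmn, known from smooth muscle, rose in both lines. It went from 0.936, 0.325 and 0.944 to 2.78, 3.08 and 2.96 TMM-scaled CPM in WT cells and from 0.883, 0.403 and 0.735 to 2.41, 3.35 and 3.43 in ΔN-VEGF cells, without overlap. The rises were 1.99 ± 0.37 and 2.18 ± 0.37 (log2, SE), with adjusted p of 0.0015 and 0.00055 (edgeR quasi-likelihood test). Bvht, a lincRNA of heart development on the opposite strand of the same locus, differed by 0.46 in WT and 0.88 in ΔN-VEGF cells and was not called. Mir17hg, host of an oncogenic microRNA cluster, ranged from 0.482 to 1.16 and was not called in any comparison.

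The most abundant lincRNAs included several without a known role. Gm26809 had the highest mean, 410 TMM-scaled CPM, followed by Neat1 (353), Gm26917 (328), Malat1 (304) and AC160336.1 (206). AU020206, at 42.7, differed by 0.35 in WT and 0.56 in ΔN-VEGF hypoxia, under 2-fold. Per kilobase of exon the order was different, with Bc1, a short transcript, first at 169 CPM, Gm26809 at 138 and Gm26917 at 98.6. Gm48942 stood at 57.9, Malat1 at 43.6 and Neat1 at 17 CPM per kilobase. AC160336.1, which spans 93147 exonic bases and overlaps at least 4 other genes, stood at 2.21. Gm26917 ends 13 bases before Rn18s-rs5, a copy of the ribosomal RNA genes, so its counts may hold reads of near-identical ribosomal sequence and are uncertain.

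Gm26809 and Gm48942 were the only members of the 10 most abundant to be called in any comparison, both between the lines in hypoxia. Gm26809, 1219 bases from Lsm8, stood at 266, 231 and 263 TMM-scaled CPM in WT hypoxia and at 536, 511 and 548 in ΔN-VEGF hypoxia. In normoxia it stood at 407, 212 and 428 in WT and 567, 370 and 585 in ΔN-VEGF cells, where the groups overlapped but each ΔN-VEGF sample was above the WT sample of the same number. That difference of 0.54 did not pass (adjusted p 0.25, edgeR quasi-likelihood test). The hypoxic samples did not overlap, and differed by 1.07 ± 0.24 (log2, SE, adjusted p 0.011, edgeR quasi-likelihood test). With total counts in place of TMM the difference was 0.85, under 2-fold. Gm48942 stood at 25.5 to 28 in WT and 57.6 to 63.6 in ΔN-VEGF hypoxia, a difference of 1.17 ± 0.26, and of 0.95 with total counts.

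Between the lines in normoxia, 9 of the 215 lincRNAs passed, 6 higher and 3 lower in ΔN-VEGF cells, or 4.19%. Of all tested genes 2.17% passed, 0.618% higher and 1.55% lower. Without the lincRNAs at 1 CPM in samples of 1 line alone, 4 were higher and 2 lower, or 3.08% of 195. The share of all genes was not cut in this way. The median log2 difference was -0.16 over the lincRNAs and -0.03 over all genes. The higher were Gm9866, Gm28321, BC026762, Gm45589, AC159200.1 and Gm42031, and the lower Gm37565, Gm38403 and Snhg20. Gm9866 stood at 0.0913, 0.0697 and 0.0193 TMM-scaled CPM in WT and at 1.42, 0.971 and 1.40 in ΔN-VEGF normoxia, and it is 1 of the 9 lincRNAs that reached the limit in a single group. Gm38403, 50172 bases from Dyrk2, stood at 6.62, 3.09 and 6.65 in WT and 2.35, 1.94 and 2.62 in ΔN-VEGF normoxia, a difference of -1.24 ± 0.26 (log2, SE, adjusted p 0.024, edgeR quasi-likelihood test). With 1 sample left out, Gm38403 did not pass in 5 of 12 fits and AC159200.1 in 9.

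This count rests on replicate 2 of WT normoxia and on the samples that set the spread. Without it, 50 lincRNAs passed, 11 higher and 39 lower, or 23.3%, where 13.3% of all genes then passed. Without replicate 1 or 3 of WT normoxia 4 and 5 lincRNAs passed, among 161 and 157 of all genes, where all samples gave 319. Without replicate 1 or 3 of ΔN-VEGF normoxia 5 and 4 passed, among 109 and 122 of all genes. Without replicate 2 of WT normoxia, Neat1 differed by -1.68, Malat1 by -1.09, Snhg18 by -1.27 and Trp53cor1 by -2.03. With replicate number as a block over all 12 samples 10 lincRNAs passed, among 295 of all genes. In the 6 normoxic samples, both samples numbered 2 deviated together. With the block there, 0 of 213 lincRNAs passed by edgeR's test, where 1 of all genes did. Of the 213, 43 had an unadjusted p below 0.05. Without the block those 6 samples also gave 0 calls, with 20 at an unadjusted p below 0.05, where 15 of all genes passed. DESeq2 on all samples gave 15 lincRNAs, among 528 of all genes.

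Between the lines in hypoxia, 28 lincRNAs passed, 11 higher and 17 lower in ΔN-VEGF cells, or 13.0%, where 6.81% of all genes passed, 2.87% higher and 3.94% lower. The median log2 difference was -0.13, against -0.01 over all genes. Of the 9 lincRNAs let in through 1 group, 5 let in through WT hypoxia alone were among the 17 and Gm9866 was among the 11. Without the 20 at 1 CPM in samples of 1 line alone, 9 were higher and 10 lower, or 9.74% of 195. The share of all genes was not cut in this way. With a mean of at least 1 CPM 9 were higher and 8 lower. With total counts in place of TMM, 5 were higher and 31 lower. Leaving out any 1 of the 6 hypoxic samples left 15 to 17 calls. The largest falls included Gm47509 (-2.63), Gm20744 (-2.21), Gm3716 (-1.91), Gm12295 (-1.81) and Gm13056 (-1.72). Of 12 fits with 1 sample left out, Gm20744 and Gm13056 did not pass in 6 each and Gm12295 in 3. Gm3716 stood at 20.5, 21.1 and 21.1 TMM-scaled CPM in WT and 5.58, 5.69 and 5.40 in ΔN-VEGF hypoxia, with an adjusted p of 0.0031 (edgeR quasi-likelihood test). In normoxia it stood at 9.77, 4.13 and 10.1 against 4.01, 1.94 and 4.29, where the groups overlapped but each ΔN-VEGF sample was below the WT sample of its number.

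The largest differences upward in hypoxia were Gm9866 (2.29), Gm44837 (1.49), Gm29371 (1.42), Gm45589 (1.32), Gm29408 (1.26) and Gm48942 (1.17). Gm44837, 1302 bases from Kctd15 on the same strand, stood at 1.12, 0.959 and 0.459 TMM-scaled CPM in WT and 2.1, 2.61 and 2.42 in ΔN-VEGF hypoxia. Gm9866, Gm45589 and BC026762 were called higher and Gm37565 lower in ΔN-VEGF cells in normoxia as well, with log2 differences of 4.37, 1.48, 1.52 and -2.47 in normoxia and 2.29, 1.32, 1.11 and -1.47 in hypoxia. BC026762 reached 1 CPM in ΔN-VEGF samples alone and Gm37565 in WT hypoxia alone. With 1 sample left out, BC026762 did not pass in 9 of 12 fits in normoxia and 10 in hypoxia, Gm45589 in 4 in normoxia, and Gm29371 in 5, Gm37565 in 2 and Gm9866 in 1 in hypoxia. Dubr and Snhg12, raised by hypoxia in ΔN-VEGF cells, were higher there than in hypoxic WT cells by 1.12 and 1.0. That of Dubr was 0.90, under 2-fold, with total counts, and that of Snhg12 did not pass in 9 of 21 alternative fits.

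The difference of the hypoxia responses, tested as the line by oxygen interaction, passed for 2 of the 215 lincRNAs, or 0.930%, where 1.56% of all genes passed, 0.890% with a larger log2 change in ΔN-VEGF cells and 0.672% with a smaller. These were Snhg12 (1.34) and Gm28321 (-1.86). With 1 sample left out, Gm28321 lost the call in 9 of 12 fits and Snhg12 in 0. Gm28321 stood at 0.274, 0.418 and 0.366 TMM-scaled CPM in WT normoxia and 1.43, 1.75 and 1.68 in WT hypoxia, and at 0.775, 1.37 and 1.08 and then 1.32, 1.45 and 1.29 in ΔN-VEGF cells. It rose in WT cells by 2.19 ± 0.25 and differed by 0.33 ± 0.24 in ΔN-VEGF cells, where the samples overlapped. Of the 12 lincRNAs called in WT hypoxia alone 1 passed the interaction, and of the 33 called in ΔN-VEGF hypoxia alone 1 passed, so for the others a difference between the lines was not shown. The median difference of responses was 0.06 over the lincRNAs and 0.03 over all genes.

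This count too rests on replicate 2 of WT normoxia. Without it 56 lincRNAs passed, 32 with a larger and 24 with a smaller log2 change in ΔN-VEGF cells, or 26.0%, where 17.4% of all genes then passed. Snhg12 (1.5), Snhg18 (1.41), Trp53cor1 (2.41), Malat1 (1.08) and Gdap10 (1.51) were among the larger, and Gm17501 (-1.83), Wincr1 (-1.81) and Lockd (-1.45) among the smaller. Calls in WT hypoxia numbered 56 without that sample, 36 upward and 20 downward, where 19.9% of all genes passed.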

How the data were processed

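RNA-seq of 12 NIH3T3 samples (WT and ΔN-VEGF, normoxia and 16 h below 0.2% oxygen, 3 each) was used. The authors made libraries with a kit that does not mark strand, trimmed and aligned single reads, and deposited raw counts per gene, whole numbers with no scaling. The submitters' processing notes name FastQC 0.11.5, Trim Galore, cutadapt 1.10, TopHat2 2.1.0, Bowtie2 2.2.6, HTSeq 0.6.1 and DESeq2 1.18.1; the strand setting of the counting is not given in the sources used here. The labels do not say whether samples came from separate cultures, so p-values measure the spread between these samples, which may be technical.

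Groups and replicate numbers came from the labels. Genes were tested with edgeR 4.0.16 in R 4.3.3 (filterByExpr, TMM, 1 mean per group over all 12 samples, quasi-likelihood F test, Benjamini-Hochberg adjustment over 14724 genes) and called at an adjusted p below 0.05 and at least 2-fold. An exact permutation test of 3 against 3 samples cannot go below 0.10 and was not used. Each SE of a log2 change was derived from the fitted change and its F statistic. That fit shared the spread over all 12 samples, so the SE is not the spread of 3 and 3 samples alone. Levels are TMM-scaled CPM, save the 1 CPM limit and the summed levels of cell type markers, which use total counts. The lincRNAs, lists and tests were chosen with earlier results of these data known. Named are listed lincRNAs, the 10 with the highest mean count, per comparison up to 6 rises and 6 falls among called lincRNAs without overlap between groups, and up to 6 called ones that reached the limit in 1 group alone; others are said to have been singled out. Of the lincRNAs this rule names, 1 is not reported here. Positions and neighbours came from the coordinates of the counts table, strand and exon lengths from GENCODE M21, and promoter windows from RefSeq.

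As a check of pairing, each sample's deviations from its group's mean were correlated with those of the sample of the same number: r was 0.38, 0.50 and 0.36 between the normoxic groups, all over the limit of 0.1 set for pairing. Of the differently numbered, 1 with 3 and 3 with 1 gave 0.35 and 0.36 and those with a sample numbered 2 gave -0.46 to -0.38, so the values set number 2 apart and do not tell 1 from 3. The r of the same number was -0.02 to 0.05 between oxygen levels in WT, 0.05 to 0.07 in ΔN-VEGF cells and 0.02 to 0.11 between the hypoxic groups. Alternatives were DESeq2 1.42.0, RLE or no scaling factors, other filters and limits, replicate number as a block, the 6 samples of a comparison alone, and each sample left out. On simulated counts, edgeR recovered 54% to 60% of 2-fold and 90% to 97% of 4-fold changes. This was over the 4 comparisons within a line or oxygen level, with 5 to 14 false calls. Both were scored at an adjusted p below 0.05 alone, so recovery under the added 2-fold threshold was not measured. The changes were planted only in genes above a limit on the mean count.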

Additional observations from a re-analysis of the deposited data

Results flagged for a closer look

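In all, 2 lincRNAs differed between the lines in their response to hypoxia by the test of the difference itself (edgeR quasi-likelihood test of the interaction, Benjamini-Hochberg adjustment over 14724 genes). Snhg12 differed by 1.34 on the log2 scale, with a larger rise in ΔN-VEGF cells, and passed in all 12 fits with 1 sample left out. Gm28321 differed by -1.86, with a rise in WT cells alone, and lost the call in 9 of the 12. Leaving out any hypoxic sample, or replicate 1 or 3 of WT normoxia, left 1 lincRNA past the thresholds. Without replicate 2 of ΔN-VEGF normoxia 5 passed. Single outlying samples were not tested for in groups of 3.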

How the results depend on the processing

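Of 1867 values of 91 results on single lincRNAs under the alternatives, 1685 passed the thresholds, 182 did not and 0 turned direction, and 53 of the 91 results passed in every alternative run. The counts of called lincRNAs moved more. Without a fold threshold, 81 passed in WT and 102 in ΔN-VEGF hypoxia. Among the 134 lincRNAs with at least 2 CPM in 3 samples, 27 passed in WT hypoxia and 38 in ΔN-VEGF hypoxia. Between the lines 5 passed in normoxia and 15 in hypoxia, and 1 passed for the difference of responses. With at least 10 counts in every sample 18 passed between the lines in hypoxia, or 9.52% of the 189 tested. With a mean of at least 1 CPM 17 did, or 10.2% of 167, against 13.0% of all 215. DESeq2 gave 15 between the lines in normoxia and 7 for the difference of responses, and total counts gave 4 for the latter. Without both normoxic samples numbered 2, 44 passed between the lines in normoxia and 52 for the difference of responses. With 1 sample left out, the counts ranged from 37 to 56 in WT hypoxia, 55 to 70 in ΔN-VEGF hypoxia, 4 to 50 and 15 to 35 between the lines in normoxia and hypoxia, and 1 to 56 for the difference of responses. Calls over all tested genes moved as well with 1 sample left out. They ranged from 109 to 2013 between the lines in normoxia and from 57 to 2633 for the difference of responses. The cause of these shifts was not tested.

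With replicate number as a block over all samples, 50, 66, 10, 28 and 3 lincRNAs passed in the same order. With the block in the 6 samples of a comparison, 24 passed in WT hypoxia and 0 between the lines in normoxia, where those 6 samples without the block gave 37 and 0. Without the lincRNAs at 1 CPM on 1 side of the comparison alone, 28 passed in WT hypoxia, 48 in ΔN-VEGF hypoxia, and 6 and 19 between the lines in normoxia and hypoxia. Those counts, and the block in 6 samples, were chosen after seeing the data. In simulated counts edgeR recovered 90% to 97% of 4-fold but only 54% to 60% of 2-fold changes, with 5 to 14 false calls. DESeq2 recovered 68% to 73% of the latter, with 30 to 52 false calls. Both were scored at an adjusted p below 0.05 without the fold threshold, on genes above a limit on the mean count. Recovery by level was not tested.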
